A study of Homo sapiens with 11 samples.

Results

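The shared single bins are the smallest mH2A1.1 ChIP-seq peaks that also carried total mH2A1 signal: peaks of the mH2A1.1 list that were 3000 bp wide, the width of 1 calling bin, and overlapped a peak of the mH2A1 list by at least 1 bp. There were 3476 of them among 18518 single-bin peaks and 30687 mH2A1.1 peaks in all. Both peak lists come from untreated MDA-MB-231 cells, an established human triple-negative breast cancer line, with 1 ChIP-seq library for a custom polyclonal antibody against mH2A1.1 (Ab αmH2A1.1) and 1 for the commercial antibody Ab37264 against total mH2A1. The study kept the peaks common to both lists as its set of mH2A1.1 peaks, and the shared single bins are common peaks of the smallest width. RNA-seq of total RNA came from 2 WT and 2 mH2A1.1 KD libraries of the same line. KD cells received siRNA against mH2A1.1 at 11 nM with INTERFERin for 3 days, and WT cells received INTERFERin with no siRNA, so a response to any siRNA and a response to the loss of mH2A1.1 cannot be told apart. The labels do not say whether replicates were separate cultures, so p-values measure the spread between these libraries.

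MacroH2A1 is a histone H2A variant that carries a large macro domain outside the nucleosome. Its gene gives rise to mH2A1.1 and mH2A1.2 by alternative splicing. The macro domain of mH2A1.1 binds NAD-derived metabolites such as ADP-ribose and that of mH2A1.2 does not, and an antibody against total mH2A1 recognizes both. MacroH2A1 is best known from the inactive X chromosome and from broad repressed domains of autosomes, and it is also found at regulatory regions of transcribed genes. A bin called with both antibodies is therefore one where both signals passed the call. In a bin called with the mH2A1.1 antibody alone, the signal of Ab37264 did not pass. The study reports a lower affinity of Ab37264 than of the custom antibody for tagged mH2A1.1. A missing call with Ab37264 is therefore not a measure of absent total protein.

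The members differed widely in sequence, and 5 stretches of GRCh38 (plus strand unless stated, 150 bases each, lower case outside the marked letters) show this range. The first is from the member of highest GC content, 69.1% with 342 CpG dinucleotides, at chr2:111120001-111123000 in BCL2L11, which encodes the pro-apoptotic protein BIM. The second is from a member of 6.80% GC at chr4:70620001-70623000 between genes. The third is from the member with the most matches of the AP-1 motif TGANTCA, 8, at chr10:17250001-17253000 between genes, where VIM was the nearest protein-coding gene with its TSS 23260 bp from the bin's centre. The next pair lies on the minus strand directly upstream of the TSS of AHNAK and of ABCA1, the member gene with the highest WT level and the one with the smallest p between KD and WT. Capitals mark TGANTCA in the bin near VIM and CpG in the others.
BCL2L11 bin, chr2:111120706-111120855: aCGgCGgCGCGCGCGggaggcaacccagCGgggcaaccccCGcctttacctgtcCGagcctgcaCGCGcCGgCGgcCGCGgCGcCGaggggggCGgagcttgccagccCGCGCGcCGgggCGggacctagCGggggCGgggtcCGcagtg
Bin of low GC, chr4:70620609-70620758: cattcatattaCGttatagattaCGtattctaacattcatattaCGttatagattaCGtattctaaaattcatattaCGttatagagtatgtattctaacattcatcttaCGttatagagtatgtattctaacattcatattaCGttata
Bin near VIM, chr10:17252009-17252158: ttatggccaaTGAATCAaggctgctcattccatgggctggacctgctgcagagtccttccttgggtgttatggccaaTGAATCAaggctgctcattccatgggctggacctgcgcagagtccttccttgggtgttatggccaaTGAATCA
AHNAK bin, chr11:62556236-62556385: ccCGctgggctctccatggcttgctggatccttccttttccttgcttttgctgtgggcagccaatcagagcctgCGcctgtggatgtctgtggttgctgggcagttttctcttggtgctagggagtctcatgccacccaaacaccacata
ABCA1 bin, chr9:104928156-104928305: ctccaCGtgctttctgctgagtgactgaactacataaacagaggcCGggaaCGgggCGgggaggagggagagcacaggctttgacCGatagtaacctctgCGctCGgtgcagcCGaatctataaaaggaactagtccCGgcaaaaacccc
The BCL2L11 stretch holds 26 CpGs, the AHNAK stretch 2 and the ABCA1 stretch 9. Over the whole bins of 3000 bp the numbers were 342, 52 and 73 in the same order, beside a median of 39 in members. The stretches of the bin of low GC and the bin near VIM are tandem repeats, in which 1 short unit recurs, and the marked motifs recur with the unit. How reads were placed on such repeats was not tested.

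The peaks were chosen by their width and overlap, and these values are given as a description. The 3476 members were 18.8% of the single bins (95% Clopper-Pearson interval 18.2% to 19.3%, counting error only, as for every interval here) and covered 10428000 bp. Just beyond the limit of width, 1193 of the 2459 mH2A1.1 peaks of 2 bins (48.5%) overlapped an mH2A1 peak. Both lists lie on the same grid, so each member was covered over its whole 3000 bp by exactly 1 mH2A1 peak and none was covered in part. Just outside the limit of overlap, 1500 of the 15042 mH2A1.1-only single bins (9.97%) touched an mH2A1 peak without sharing a base, and the median distance of these 15042 bins to the nearest mH2A1 peak was 21000 bp.

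Many members were single bins in both lists. For 1569 members (45.1%, 43.5% to 46.8%) the mH2A1 peak was the same single bin, 1162 (33.4%) were the end bin of a wider mH2A1 peak and 745 (21.4%) lay inside one. The median width of the mH2A1 peak was 6000 bp, and 580 members (16.7%) lay on a peak of 24000 bp or more. Almost every member had an mH2A1 peak of its own: the 3476 members lay on 3356 mH2A1 peaks, of which 3244 held 1 member, 104 held 2 and 8 held 3. For 81.6% of members it was the only mH2A1.1 peak on its mH2A1 peak. The widest mH2A1 peak with a member spanned 246000 bp on chromosome 17, and its single member, chr17:41466001-41469000, covered the TSS region of KRT32, a gene of a hair keratin.

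**Figure D1:**
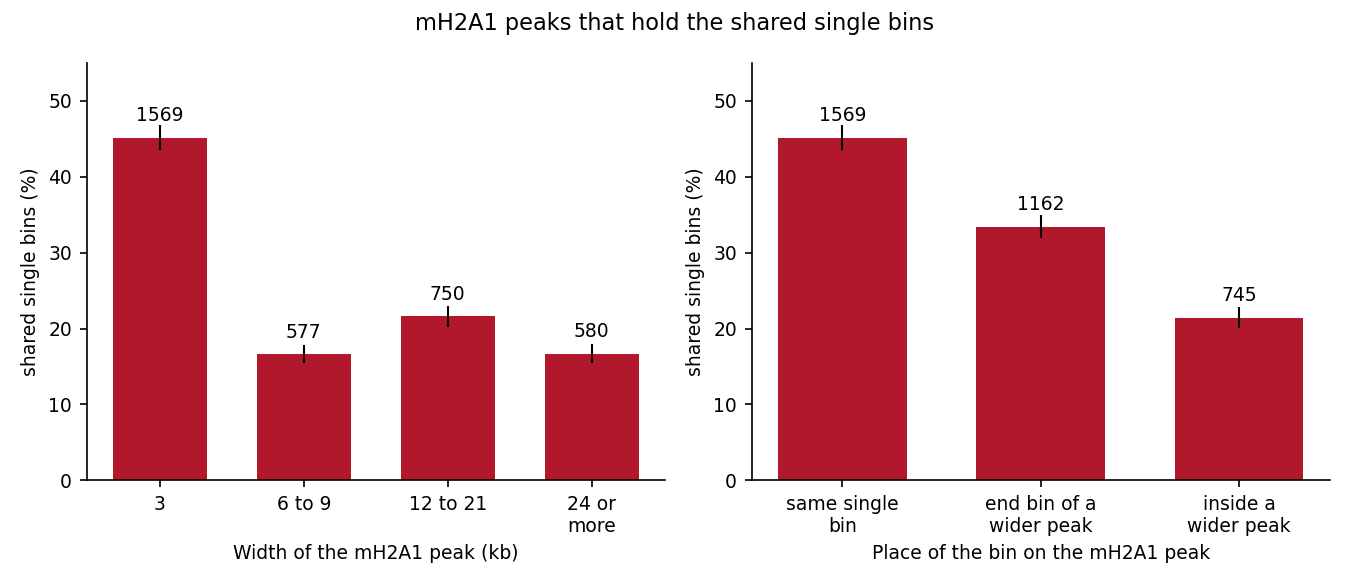
Share of the 3476 shared single bins (vertical axes, %, with 95% Clopper-Pearson intervals as bars and the number of members above) by the width of the mH2A1 peak they lie on (left, kb) and by their place on it (right). The same single bin was the most frequent partner, with 1569 members, and 580 members lay on mH2A1 peaks of 24 kb or more.

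Members were found on every autosome and on X, at 3.58 per 1000 grid bins in all. The density was lowest on chromosome 13 with 1.56 and on X with 1.74, and highest on chromosome 22 with 6.30. The share of single bins that was shared varied less, from 12.6% on chromosome 13 to 23% on chromosomes 17 and 22, and was 16.1% on X. The distance from a member to the nearest other mH2A1.1 peak had a median of 15000 bp, and 978 members (28.1%) stood at 9000 bp, the smallest gap in the list. The corresponding median of the mH2A1.1-only single bins was 21000 bp.

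Compared with mH2A1.1-only single bins, the shared ones lay more often between genes, less often at a protein-coding TSS and less often far from any TSS. Each bin was assigned in the order TSS of any GENCODE gene within 1 kb, exon, intron and between genes. A TSS was within 1 kb of 609 members (17.5%, 16.3% to 18.8%) and of 17.9% of mH2A1.1-only single bins, a difference of -0.416 percentage points (95% Newcombe interval -1.79 to 1.02). For a protein-coding TSS the shares were 9.12% and 10.3% (difference -1.22 points, -2.26 to -0.114). The nearest TSS was more than 50 kb from the centre of 13.3% of members and 17% of mH2A1.1-only bins (-3.78 points, -5.03 to -2.47). Both shares within 1 kb of any TSS were above the 8.95% of all 969680 bins of the grid without unknown bases. Between genes lay 1232 members (35.4%, 33.9% to 37.1%) against 26.3% of mH2A1.1-only single bins, a difference of 9.14 points (7.42 to 10.9). The share between genes in the whole grid was 35.5%, so the members were close to the grid in this and the mH2A1.1-only bins stood below it. Members overlapped a protein-coding gene in 44.4% of cases and mH2A1.1-only single bins in 57.0%, a difference of -12.6 points (-14.4 to -10.8). Introns without an exon or TSS held 28.2% of members and 35.0% of mH2A1.1-only bins, a difference of -6.82 points (-8.48 to -5.12).

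Single bins of the mH2A1 list that met no mH2A1.1 peak, 10563 in number, form the opposite class. Against these mH2A1-only bins the members were more often at a TSS, with 17.5% against 13.2% (difference 4.30 points, 2.91 to 5.75), and at a protein-coding TSS, with 9.12% against 4.99% (4.13 points, 3.12 to 5.21). Their share between genes, 35.4% against 33.0%, differed by 2.40 points (0.589 to 4.24). The members' share at a TSS stood nearer to that of the mH2A1.1-only bins, and their share between genes nearer to that of the mH2A1-only bins. Wider shared peaks had a TSS within 1 kb in 53.4% of cases, and for shared peaks of 2 bins the value was 31.3%. A wider peak reaches more TSSs by its width alone. The study, with another annotation tool, places the vast majority of its common peaks, of all widths, at promoters (TSS within 1 kb). Intervals treat bins as independent and each antibody had 1 library, so none of these differences could be set against replicate error.

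**Figure D2:**
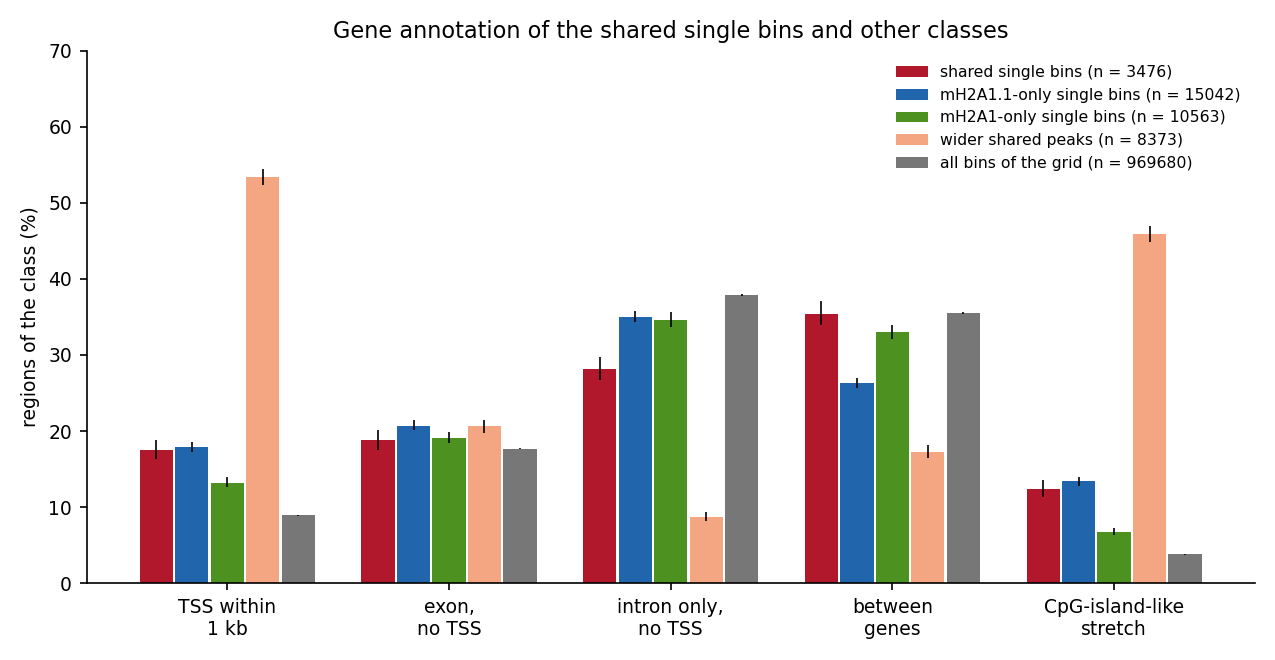
Share of regions (vertical axis, %, bars with 95% Clopper-Pearson intervals) with each annotation (horizontal axis) for the shared single bins, mH2A1.1-only single bins, mH2A1-only single bins, wider shared mH2A1.1 peaks and all 3000 bp bins of the grid. The shared single bins stand at 17.5% for a TSS within 1 kb, beside 17.9% of mH2A1.1-only bins, and at 35.4% between genes, above their 26.3%.

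The shared single bins were richer in G and C than either class of unshared single bins. The median GC content was 47.1% in members (quartiles 44.3% and 50.5%), 45% in mH2A1.1-only bins, 44.8% in mH2A1-only bins and 39.7% in the grid. The range among members was wide, from 6.53% at chrX:37284001-37287000 to 69.1% in the BCL2L11 bin. The median number of CpGs was 39 in members, 35 in mH2A1.1-only, 33 in mH2A1-only and 23 in grid bins. The ratio of observed to expected CpGs, which corrects for base composition, was nearly the same in the members and the mH2A1.1-only bins, with medians of 0.239 and 0.238. A CpG-island-like stretch (500 bp with at least 55% GC and a ratio of at least 0.65, a measure added after values were seen, as was the mH2A1-only class) was present in 431 members (12.4%, 11.3% to 13.5%), 13.4% of mH2A1.1-only bins, 6.79% of mH2A1-only bins and 3.80% of the grid. Members exceeded mH2A1-only bins by 5.61 points (4.45 to 6.84), and the difference from mH2A1.1-only bins was -0.963 points (-2.15 to 0.293).

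**Figure D3:**
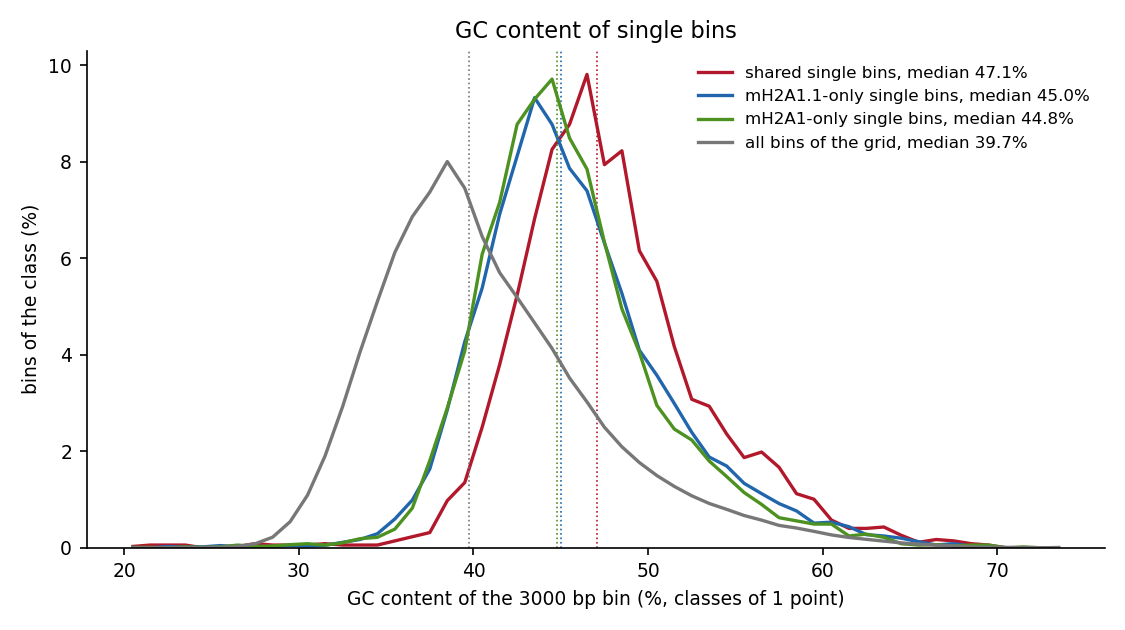
Distribution of GC content (horizontal axis, %, in classes of 1 point) as the share of bins of each class (vertical axis, %), with dotted lines at the medians. The curve of the shared single bins (median 47.1%) lies to the right of those of mH2A1.1-only (45%) and mH2A1-only (44.8%) single bins and of the whole grid (39.7%). A few bins lie outside the axis range.

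The GC box and the E-box were more frequent in members than in either class of unshared single bins. The GC box GGGCGG, bound by SP family factors, was present on either strand in 51.4% of members, 46.6% of mH2A1.1-only bins, 42.5% of mH2A1-only bins and 27.6% of the grid. The E-box CACGTG, bound by MYC and USF factors, was present in 34.5%, 29.8%, 31.0% and 23.5% of the same classes. Members exceeded the mH2A1.1-only bins by 4.88 points for the GC box (3.04 to 6.72) and by 4.75 points for the E-box (3.03 to 6.51). Both motifs contain a CpG, and the shares were not corrected for the higher GC content of the members. The AP-1 motif TGANTCA did not set them apart: it was present in 61.8% of members and 60.5% of mH2A1.1-only bins (difference 1.30 points, -0.502 to 3.09), and in 60.5% of the grid. CCAAT, the motif of NF-Y, was present in 97.2% of members and 98.1% of the grid, so nearly every window of this length held it. No motif contains another, matches can overlap at their ends, and a match is a description of letters, not of binding.

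Members on wider mH2A1 peaks had a higher GC content than those that were single bins in both lists, by values given with no test. A TSS was within 1 kb of 18.9% of members with a 1-bin mH2A1 peak, 16.4% of end bins and 16.4% of bins inside wider peaks. The median GC content was 46.5%, 47.3% and 48.2% in the same order, and 48.8% for members on mH2A1 peaks of 24000 bp or more. Within 976 mH2A1 peaks of at least 3 bins that held 1 member and no other mH2A1.1 peak, the member was compared with the other 3537 bins of the same peaks. The member had the higher GC content in 65.4% of these peaks, with a median difference of 1.39 points (quartiles -1.06 and 3.76). A TSS lay in 11.8% of the member bins and, averaged over peaks, in 8.20% of the other bins, and CpG-island-like stretches in 9.94% and 5.64%. The member was an end bin in 60.7% of these peaks, where 48.5% of bins were ends, and end bins border sequence outside the mH2A1 call.

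Genes with a member at their TSS spanned the whole range of WT expression. Of the 23061 genes with counts that were matched to the annotation, 374 (1.62%) had a member within 1 kb of the TSS. They comprised 326 protein-coding, 33 lncRNA and 7 miRNA genes and rested on 335 members, 36 of which served 2 or more of these TSSs. By quartiles of WT FPKM over all genes, 18.2% were in the silent class, 26.7% in the low, 28.6% in the medium and 26.5% in the high class. Of 2041 genes with an mH2A1.1-only single bin at the TSS, 37.9% were in the high and 10.4% in the silent class. The share in the high class was thus 11.4 points lower for the shared bins (-11.4, interval -16.1 to -6.27) and that in the silent class 7.75 points higher (3.9 to 12.2). Genes with an mH2A1-only single bin leaned the other way, with 18.4% in the high and 27.0% in the silent class. The genes of the shared bins exceeded them by 8.05 points in the high class (2.81 to 13.5). Against genes with a wider shared peak at the TSS, the difference in the high class was -1.33 points (-5.72 to 3.51). The silent and low classes are cut by rank among genes at 0, and 85 of the 374 genes (22.7%) had no count in either WT library, beside 13.2% for mH2A1.1-only bins and 31.9% of all genes.

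**Figure D4:**
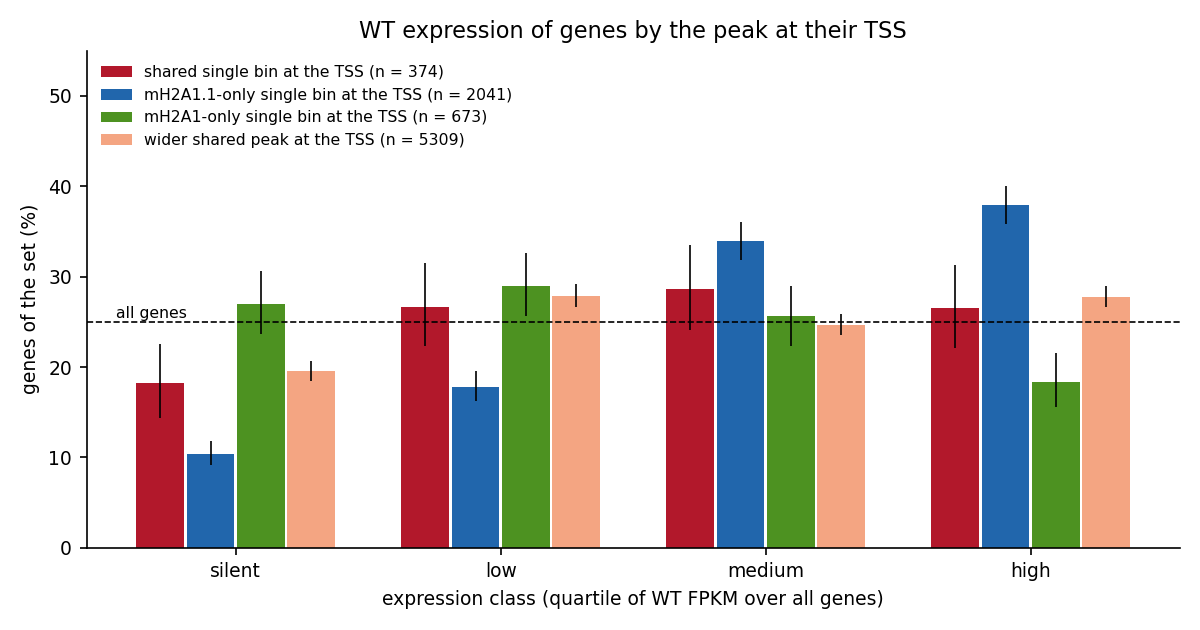
Share of genes (vertical axis, %, bars with 95% Clopper-Pearson intervals) in each quartile of WT FPKM (horizontal axis) for genes with a shared single bin, an mH2A1.1-only single bin, an mH2A1-only single bin or a wider shared peak within 1 kb of the TSS. The dashed line marks all genes. In the high class, genes with a shared single bin (26.5%) lie between those with an mH2A1-only (18.4%) and an mH2A1.1-only (37.9%) single bin.

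The genes that contained the members were also less often of the high class than those of mH2A1.1-only bins, whereas the difference from mH2A1-only bins had an interval that included 0. A protein-coding gene of the table was overlapped by 1481 members (42.6%), and it was of the high class for 22.6% of these, against 36.5% of mH2A1.1-only bins inside genes (difference -14.0 points, -16.3 to -11.5). The host was silent or low for 19% and 28.9% of the members and for 12.1% and 17.8% of the mH2A1.1-only bins. For mH2A1-only bins the share with a host of the high class was 24.3%, a difference of -1.75 points (-4.14 to 0.753), and in the grid it was 27.0%. A host gene may hold several bins, so bins inside 1 gene are not independent.

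Most genes with a member inside held 1: 1328 genes held 1, 150 held 2, 36 held 3 and 17 held 4 to 6. Those with the most, named after their values were seen, were long genes. GABBR2, which encodes a subunit of the GABA-B receptor, held 6 members on 420827 bp and had 2 counts in each WT library and none in KD. KCNMA1, which encodes a calcium-activated potassium channel, held 6 on 768769 bp, with 9 and 0 counts in WT and 1 and 0 in KD. RUNX1, a transcription factor best known from blood cell development, held 6 on 1216867 bp; it belonged to the high class at 2428 and 1835 WT counts and had 1346 in KD replicate 1. NAV2, which encodes a neuron navigator protein, held 5 on 770878 bp and belonged to the same class, at 2470 and 2051 WT counts. These 4 genes also held 1, 4, 12 and 8 mH2A1.1-only single bins. SPECC1, with 1119 and 932 counts in WT, held 4 members and 1 mH2A1.1-only bin on 310162 bp. LINC01331, with no counts, held 5 and 6 on 425287 bp. Whether the balance of both kinds of bin goes with expression or gene length was not tested.

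The label of the cells, epithelial, was compared with marker genes in the WT libraries. Keratins KRT8 (481 and 537 CPM), KRT18 (334 and 368 CPM) and KRT19 (252 and 278 CPM) were present, whereas CDH1 (E-cadherin) was at 2.25 and 2.42 CPM and OVOL1 at 0. KRT7 was at 276 and 303 CPM, CLDN4 at 69.7 and 71.1 CPM and EPCAM at 19.3 and 21.4 CPM. CLDN7 (6.53 and 6.11 CPM), CLDN3 (0.919 and 0.891 CPM), GRHL2 (0.306 and 0 CPM) and ESRP1 (0.102 and 0 CPM) were low. Of the 12 epithelial markers 1 was at 0 in both libraries. Of the 12 mesenchymal markers VIM was the highest, at 2250 and 2430 CPM, followed by AXL (1670 and 1680 CPM) and FN1 (748 and 722 CPM). CDH11, ZEB1, LOX, TGFBI, SNAI2 and ZEB2 lay between 30.5 and 174 CPM. The lowest were CDH2 at 2.14 and 3.18 CPM, SPARC at 0.817 and 0.891 CPM and TWIST1 at 0. ESR1 and PGR, the genes of the estrogen and progesterone receptors, had no counts, and ERBB2, which encodes HER2, was at 77.6 CPM in both libraries. Counts on genes summed to between 2309549 and 9794674 per library. KD replicate 2, the shallowest, held 30 counts on chromosome 21 and none on 22 and X, so genes of these chromosomes were left out of the fit. MACROH2A1, whose gene count does not separate the isoforms, was at 385 and 394 CPM in WT and 274 and 301 CPM in KD (log2 fold change -0.44, standard error 0.173, adjusted p = 0.204, edgeR).

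The genes with the highest WT levels among those with a member at the TSS were highly expressed in all 4 libraries. CPM values of single genes are scaled by TMM factors and set libraries, not genes, side by side. AHNAK (ENSG00000124942), a giant scaffold protein under the plasma membrane, was at 7510 and 6970 CPM in WT and 8610 and 7340 CPM in KD, and the groups overlapped (log2 fold change 0.14, standard error 0.191, and -0.03 with a correction for GC content and exon length). MAP1B, a microtubule-associated protein, was at 1430 and 1390 CPM in WT and 1810 and 1510 CPM in KD (0.24, standard error 0.185, adjusted p = 0.425, edgeR, and 0.35 with the correction). Its bin, chr5:72105001-72108000, was a single bin in both lists.
HNRNPA2B1, an RNA-binding protein of splicing, was at 1360 and 1350 CPM in WT and 1270 and 1230 CPM in KD. EGFR, the epidermal growth factor receptor, was at 659 and 662 CPM in WT and 596 and 549 CPM in KD (log2 fold change -0.21, standard error 0.171, adjusted p = 0.455, edgeR, and -0.24 with the correction). Its bin, chr7:55017001-55020000 with 201 CpGs, lay on an mH2A1 peak of 21000 bp. HDLBP, the RNA-binding protein vigilin, was at 665 and 722 CPM in WT and 830 and 1010 CPM in KD (0.41, standard error 0.188, adjusted p = 0.235, edgeR, and 0.08 with a correction for GC content and exon length). The other 5, EIF4G2 (translation), APLP2 (an amyloid precursor-like protein), CALU (a calcium-binding protein of the secretory pathway), TFRC (the transferrin receptor) and CDC42 (a small GTPase), had WT means between 491 and 1310 CPM and overlapping groups. Their log2 fold changes lay between -0.27 and 0.12, and between -0.12 (CDC42) and 0.37 (CALU) with the correction.

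Between KD and WT edgeR called no gene, with or without a member at the TSS, and other fits called some of both. A call needed a fold change over 1.5 and, after adjustment, a p under 0.1. Of the 203 genes with a member at the TSS that could be tested, edgeR called 0, as it did of all 10943 genes (0%). When the p was left unadjusted and had to be under 0.05, 21 of the 203 were lower and 14 higher in KD, beside 9.39% and 9.49% of all genes tested. The median log2 fold change of the 203 genes was -0.028 (quartiles -0.355 and 0.243) and that of all genes 0.008. DESeq2, the tool of the study, called 17 of the 143 that it tested (11.9%), beside 878 of 7739 genes (11.3%). Of the 17, 9 were lower and 8 higher in KD, where 5.78% of all genes were called lower and 5.57% higher. With edgeR and a correction for GC content and exon length, 7 of 203 were called (3.45%), 4 lower and 3 higher, beside 5.38% of all genes, of which 3.23% were lower and 2.16% higher. Without KD replicate 1, 77 member genes were called (37%), beside 41.8% of all genes, and without KD replicate 2, 13 (6.28%), beside 8.06%.

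Among the genes lower in KD, ABCA1, the transporter that loads cholesterol onto lipoprotein particles, had the smallest p. It was at 194 and 172 CPM in WT and at 102 and 93.2 CPM in KD. Both KD libraries were far below both WT libraries, with a log2 fold change of -0.91 (standard error 0.181, adjusted p = 0.175, edgeR), and DESeq2 called it at an adjusted p of 0.011. Its bin, chr9:104928001-104931000, a single bin in both lists whose sequence is given above, contained the TSS at 104928155. CXCL2, a chemokine that attracts neutrophils, was at 33.9 and 24.9 CPM in WT and 13.2 and 12.3 CPM in KD (log2 fold change -1.19, standard error 0.253, adjusted p = 0.175 in edgeR and 0.032 in DESeq2). ZNF22, a zinc finger protein, was at 64.4 and 62.5 CPM in WT and 36.1 and 22.2 CPM in KD (-1.08, standard error 0.252, adjusted p = 0.193 in edgeR and 0.020 in DESeq2). The other 2, EI24 and C2CD5, had log2 fold changes of -0.60 and -0.81.
With the correction for GC content and length, ABCA1, CXCL2, ZNF22 and EI24 passed both thresholds in edgeR, at adjusted p values of 0.013, 0.027, 0.035 and 0.020, and C2CD5 did not (0.12). The log2 fold change of ZNF22 was then -0.67 and that of C2CD5 -0.36.

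Among the genes higher in KD, CFI, which encodes complement factor I, had the smallest p at a very low level. It had 8 and 8 counts in WT and 25 and 4 in KD, or 0.843 and 1.05 CPM against 4.73 and 1.89 CPM (log2 fold change 1.99, standard error 0.507, adjusted p = 0.193, edgeR). MAGOH, a core protein of the exon junction complex, was at 25.7 and 27.0 CPM in WT and 40.7 and 54.4 CPM in KD (0.83, standard error 0.220, adjusted p = 0.193 in edgeR and 0.077 in DESeq2). NHERF2, a scaffold protein of membrane transporters, was at 143 and 140 CPM in WT and 205 and 326 CPM in KD (0.90, standard error 0.248, adjusted p = 0.193 in edgeR and 0.033 in DESeq2). SIDT2 and TMEM38A had log2 fold changes of 0.80 and 0.85. The groups did not overlap in these 10 genes, but the genes were chosen by p, so this is no further result. The share of all tested genes without overlap was not computed. With the correction, CFI and MAGOH were called (adjusted p 0.039 for both), whereas the log2 fold change of NHERF2 was 0.33 (adjusted p = 0.11) and those of SIDT2 and TMEM38A were 0.40 and 0.56.

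**Figure D5:**
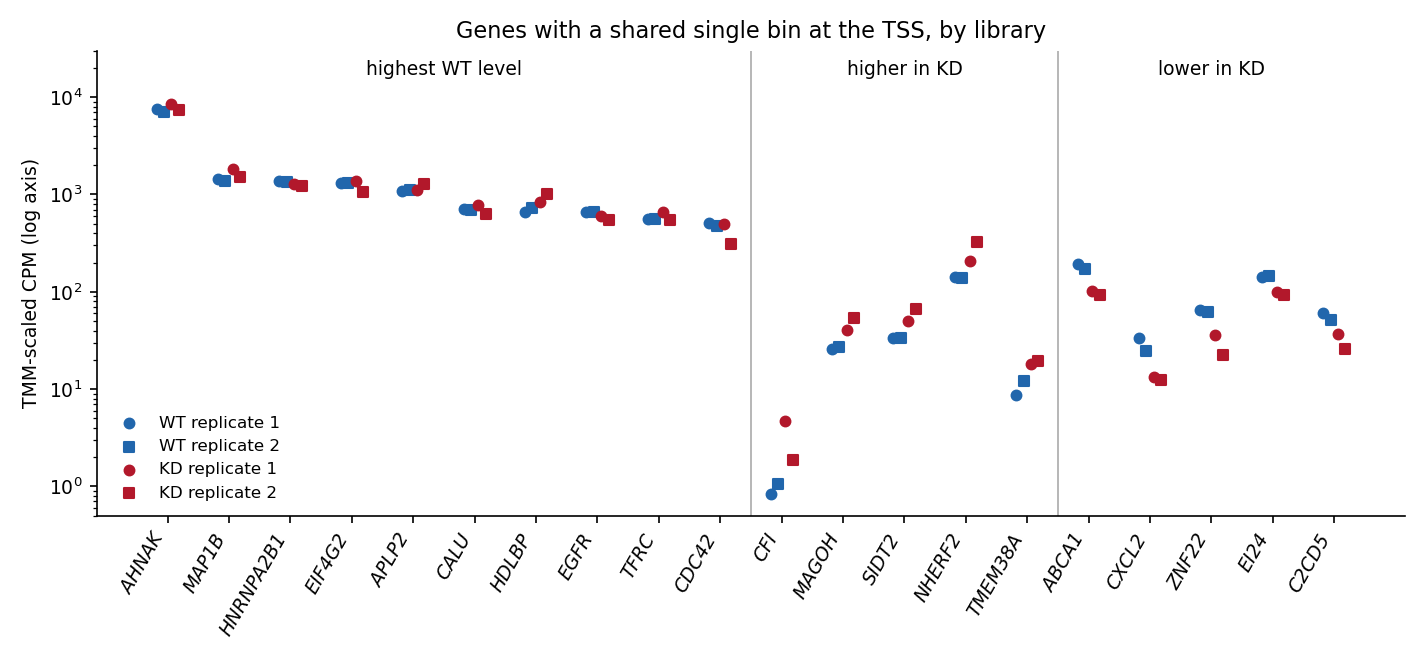
TMM-scaled CPM (vertical axis, log scale) in each of the 4 libraries (points; blue for WT, red for KD, circles for replicate 1 and squares for replicate 2) of genes with a shared single bin within 1 kb of the TSS: the 10 with the highest WT level and the 5 higher and 5 lower in KD with the smallest p. ABCA1 stands at 194 and 172 CPM in WT and at 102 and 93.2 CPM in KD.

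Few genes of any list had a member at the TSS. Of 81 actin and migration genes, 4 (4.94%) had one, beside 1.62% of all genes: CDC42, ROCK2, CRK and EVL. None of the 72 tested genes of that list was called by edgeR. ROCK2, a kinase of actomyosin contraction, was at 284 and 276 CPM in WT and 215 and 138 CPM in KD (log2 fold change -0.66, standard error 0.240, adjusted p = 0.195, edgeR, and -0.20 with the correction). CDC42, which drives filopodia, was at 505 and 477 CPM in WT and 496 and 313 CPM in KD. CRK, an adaptor of adhesion signalling, and EVL, a protein of actin filament ends, had WT means of 26.1 and 6.64 CPM and overlapping groups.
Of 73 matrix and adhesion genes, JAM3 and AGRN had a member at the TSS. AGRN, a proteoglycan of basement membranes, was at 318 and 312 CPM in WT and 387 and 645 CPM in KD (0.71, standard error 0.260, adjusted p = 0.196 in edgeR and 0.096 in DESeq2, which called it, and 0.13 with an adjusted p of 0.45 after the correction in edgeR). JAM3, a junctional adhesion molecule, had no counts in any library. IRX3 was the 1 member gene among 126 developmental transcription factors (9.27 and 10.0 CPM in WT, 10.6 and 21.8 CPM in KD), and MCM7, a subunit of the replicative helicase, the 1 among 72 cell cycle genes (336 and 368 CPM in WT, 364 and 481 CPM in KD). PECAM1, an endothelial adhesion molecule among the 9 leukocyte and stromal markers, was at 3.06 and 3.42 CPM in WT and 5.49 and 4.26 CPM in KD. None of 78 DNA repair genes and none of 74 ion channel and neuronal genes had a member at the TSS. A member lay inside 14 of the latter, beside 1213 of all 23061 genes, and gene length was not taken into account. None of the 12 epithelial markers, 12 mesenchymal markers or 4 breast receptor genes had one at the TSS.

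Of 20 genes on a list drawn up for the study, which leaves out other genes that it names, none had a member at the TSS. A member lay inside 2 of them. Of all 23061 genes, 1.62% had one at the TSS and 1213 had one inside only. FRAS1, an extracellular matrix protein of basement membranes, held chr4:78321001-78324000, a single bin in both lists. FRAS1 was at 94.3 and 98.5 CPM in WT and at 143 and 154 CPM in KD, and both KD libraries were above both WT libraries (log2 fold change 0.62, standard error 0.172, adjusted p = 0.193, edgeR). KCNN3, a calcium-activated potassium channel that the text of the study does not name, held chr1:154806001-154809000 on an mH2A1 peak of 105000 bp and had no counts. On chromosomes 21, 22 and X, 20 genes had a member at the TSS and 3 libraries measured them. The highest was SCAF4, with 101 and 99.7 CPM in WT and 102 CPM in KD replicate 1, and 6 of the 20 had no counts in these libraries.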

How the data were processed

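ChIP-seq peaks of 1 mH2A1.1 and 1 mH2A1 library and RNA-seq counts of 2 WT and 2 KD libraries were used; the ChIP input and 4 PCHiC samples were not analysed here. The deposited peak files hold positions, in bp of hg38, which the authors made with STAR 2.5.1 and enrichment calls of normR against the input, with parameters adjusted per data set; their score column is 0 throughout. The deposited RNA files hold gene counts; the authors aligned with STAR, filtered on mapping quality, removed duplicates and counted with htseq-count. Removing duplicates by position can lower counts of highly covered genes. Which annotation was used for counting is not given in the sources used here.

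Members, lists and comparisons were chosen with earlier results of these data known. Regions were annotated with GENCODE release 44 (GRCh38); 23061 of 23167 gene identifiers matched, and the other 106 were left out. FPKM used summed exon lengths. The test used edgeR 4.0.16 under R 4.3.3 (TMM, its low-count filter, quasi-likelihood test, Benjamini-Hochberg adjustment over 10943 genes); DESeq2 1.42.0 was an alternative. Standard errors came from the F statistic. The fits were also run on simulated counts with no trend in GC content, so that run does not show whether the calls here are right. Shares carry Clopper-Pearson and differences Newcombe 95% intervals (scipy 1.17.1, statsmodels 0.14.6). The GC and length correction used lowess trends with a span of 0.3 as offsets.

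Named genes were, among those with a member within 1 kb of the TSS, the 10 of highest WT level, the 5 higher and 5 lower in KD with the smallest p, and up to 4 per gene list. Genes of the list drawn up for the study with a member at the TSS or inside were also named. Named regions were the members of highest and lowest GC content, of most TGANTCA matches, at the TSS of the most expressed gene and on the widest mH2A1 peak. Genes with the most members and the ABCA1 sequence are outside this rule. A sequence of 1 further bin is not reported here. The member of lowest GC has unknown bases, so the next one without them is printed; sequences avoid annotated untranslated regions.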

Additional observations from a re-analysis of the deposited data

How the results depend on the processing

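The number of members stayed at 3476 with an overlap of 1500 bp or of the whole bin and was 4976 with mH2A1 peaks widened by 3000 bp. The share of members with a TSS within 1 kb was 9.12% for protein-coding genes only, 25.5% with the starts of all transcripts, 15.4% with a window of 500 bp and 25.3% with one of 3 kb. The share between genes was 54.3% with protein-coding genes only, and the median GC content was 46.6% without the members at a TSS. The share of member genes in the high class stayed between 25.2% and 26.8%. Called genes with a member at the TSS and in all numbered 17 and 878 with DESeq2, 35 and 2143 with no low-count filter, 7 and 589 with the GC and length correction, and 0 and 0 with RLE factors or all chromosomes kept. The median log2 fold change of member genes was -0.093 with DESeq2, -0.107 without the filter and -0.087 with all chromosomes kept, where medians of all genes were 0.002, -0.039 and -0.045. With 1 library left out in turn, 0 to 77 member genes and 2 to 4735 of all genes were called, with member medians from -0.09 to -0.007; the lone library of a group is then assumed to vary like the other group. The largest numbers came without KD replicate 1. The cause of these changes was not tested.

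Same-numbered WT and KD libraries share only a number in the labels, and their deviations from the group means correlated at 0.295. With the replicate block, 35 member genes (17.2%) and 2200 of all genes (20.1%) were called, and 14 (6.9%) and 866 (7.91%) with the replicate block and the GC and length correction; the labels give no pairing behind the block.

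With 1 ChIP-seq library per antibody and peaks placed on 3000 bp bins, positions are no finer than a bin and no share has a replicate error. KD replicate 2 held 2309549 counts, which limits what was detectable at low levels.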
